A study of Mus musculus with 48 samples.

Results

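The report concerns 10 genes of gut hormone cells: 4 peptide hormones (Gast, Ghrl, Sst and Cck), 4 genes of the secretory granule (Chga, Chgb, Pcsk1 and Scg5) and 2 enzymes that make amine messengers (Hdc and Tph1). They were followed in 48 Affymetrix arrays of mouse tissue from the junction of oesophagus and stomach, in 16 groups of 3 arrays. They are 10 of 22180 gene symbols in the deposited table, picked by name with earlier results of these data known, and each was read from its brightest probe set that carried a single symbol. Each of the 10 had only 1 such probe set, and all 10 passed the filter on dim genes, which kept the 15242 symbols whose signal exceeded the median of the array on 3 arrays or more.

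In most groups the animals carried pL2, the label of a transgene line used as a mouse model of Barrett oesophagus, in which interleukin-1 beta is made in the squamous lining of the oesophagus and forestomach. FXR is the usual name of the nuclear receptor for bile acids, IL8 that of a chemokine that draws neutrophils, Lgr5 marks stem cells of the gland and Dclk is short for a marker of tuft cells. At the facility labelled MRI, chow-fed mice of 12 months were pL2, pL2_FXR, FXR, pL2_IL8 or WT, and a further pL2_IL8 group was 9 months old. At the facility labelled Freising, mice of 12 months were pL2 or WT, each on a high-fat diet (HFD) or chow. A further 6 MRI lines on chow combined pL2 with a driver, Dclk or Lgr5, and with a Notch allele labelled Notch2IC_LacZ, Notch2fl_fl or Notch1fl_fl. The 3 Dclk lines received tamoxifen at 5 to 6 months and were sampled at 10 to 13 months, and the 3 Lgr5 lines received it at 3 to 5 months and were sampled at 9 to 11 months. The labels do not state the FXR allele, the sex of the mice or whether arrays came from separate litters, and they name no untreated or pL2-free Notch line. In pL2_Lgr5_Notch1fl_fl, pL2_Dclk_Notch1fl_fl and pL2_Dclk_Notch2fl_fl each array has its own age at sampling, so these arrays came from different animals. For the other groups nothing in the labels says that all arrays are separate animals, so p-values measure the spread between these samples.

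Gut hormone cells are scattered single cells of the stomach and intestinal lining. They make a hormone as a long precursor, sort it into dense-cored granules with the granins, cut it there with proprotein convertases, and release it when nutrients, acid, nerves or other hormones act on the cell. In the acid-secreting part of the mouse stomach, ghrelin cells, somatostatin cells and the histamine-storing enterochromaffin-like cells predominate, while gastrin cells lie in the antrum and cholecystokinin cells in the duodenum. Mast cells of rodents also make histamine and serotonin, and neurons of the gut wall carry granins and convertases, so several of the 10 genes are not restricted to hormone cells.

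The medians of the arrays ran from 4.03 to 4.27, no 2 arrays were identical, and arrays of 1 group correlated at 0.910 to 0.992 over all symbols. In 10 arrays the mean of a hepatocyte or intestinal marker list was above 8, and 1 of these, replicate 2 of pL2_Lgr5_Notch1fl_fl, had a hepatocyte list mean of 11.07. Another array, replicate 2 of pL2 on HFD, had the lowest parietal cell list mean of the 48, 7.78. Counts without these arrays are given beside the results they change. Whole tissue was measured, so fewer cells of a type and less RNA per cell cannot be told apart in anything that follows. Values are log2 signals per probe set. They are compared between groups for the same gene and never between genes.

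Among the hormones, Ghrl encodes ghrelin, the appetite-stimulating peptide of the gastric ghrelin cells. It averaged 10.87 over the 48 arrays, with a lowest value of 8.43 and a highest of 12.11. The 3 brightest groups were WT on chow at Freising (11.95), FXR (11.84) and WT on HFD (11.83), and the step from WT on HFD to the next group, pL2_IL8 at 12 months (11.11), was larger than the standard deviation of either. Single arrays of lower groups still reached them, as replicate 1 of pL2 on HFD did with 12.11. WT at MRI was not among them, with 10.93, 10.52 and 11.50. The dimmest group was pL2_Lgr5_Notch2IC_LacZ, whose 3 arrays read 8.63, 10.56 and 9.43.

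Sst encodes somatostatin, which restrains gastrin release and acid secretion. It averaged 10.26 and ran from 6.49 to 12.22, the widest range of the 10 genes. The 4 groups without pL2 were the brightest, at 11.95 in WT on HFD, 11.92 in WT on chow at Freising, 11.72 in FXR and 11.18 in WT at MRI. pL2_Lgr5_Notch1fl_fl was dimmest at 8.49, with single arrays at 8.89, 6.49 and 10.11. The lowest of these came from the array with the highest hepatocyte list mean named above.

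Gast, the gene of gastrin, the antral hormone that drives acid secretion, stayed between 4.83 and 6.26 in 47 arrays. The exception was 7.80 in replicate 3 of pL2 on HFD, whose other replicates read 5.49 and 5.58. Cck, the gene of cholecystokinin, which contracts the gallbladder, ran from 4.42 to 7.24. Its brightest group was pL2_Dclk_Notch2fl_fl, with 6.45, 6.90 and 5.76, and its dimmest were pL2_FXR (4.73) and FXR (4.81). No neighbouring groups in the order of Gast or of Cck were further apart than the larger of their standard deviations.

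The granins Chga and Chgb are acidic proteins that help to pack hormones into granules. Chga averaged 9.96 and was highest in WT on chow at Freising (11.38) and lowest in pL2_Lgr5_Notch2IC_LacZ (8.31). Chgb averaged 6.27, was highest in FXR (7.32) and lowest in pL2_Lgr5_Notch2fl_fl (5.33). For both, the 4 groups without pL2 held the 4 highest means.

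Pcsk1 encodes the convertase that makes the first cuts in many prohormones. Its highest group means were 5.90 in FXR, 5.69 in WT at MRI and 5.67 in WT on chow at Freising, and the lowest was 4.02 in pL2_Lgr5_Notch2fl_fl. Scg5 encodes a chaperone that brings the related convertase Pcsk2 to maturity. It was dim, above the array median in 25 of 48 arrays, and was highest in FXR (5.31) and lowest in pL2_Lgr5_Notch2fl_fl (3.46). Pcsk1 and Scg5 again had their 4 highest means in the 4 groups without pL2. The step from the lowest of these 4 groups to the next never exceeded the larger of their standard deviations. This held for Sst, Chga, Chgb, Pcsk1 and Scg5, with steps from 0.09 in Pcsk1 to 0.51 in Sst.

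Hdc makes histamine from histidine, and Tph1 makes the first step of serotonin synthesis outside the brain. Hdc ran from 4.88 to 8.04, with the highest group means in WT on chow at Freising (7.27) and pL2_IL8 at 9 months (7.01). Tph1 ran from 3.43 to 5.52 and was above the array median in 23 of 48 arrays, so its values lie near the dim end of the arrays. Its highest mean was 4.80 in pL2_Dclk_Notch1fl_fl and its lowest 3.67 in pL2 on chow at Freising. Neither gene had neighbouring groups separated by more than their larger standard deviation.

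**Figure D1:**
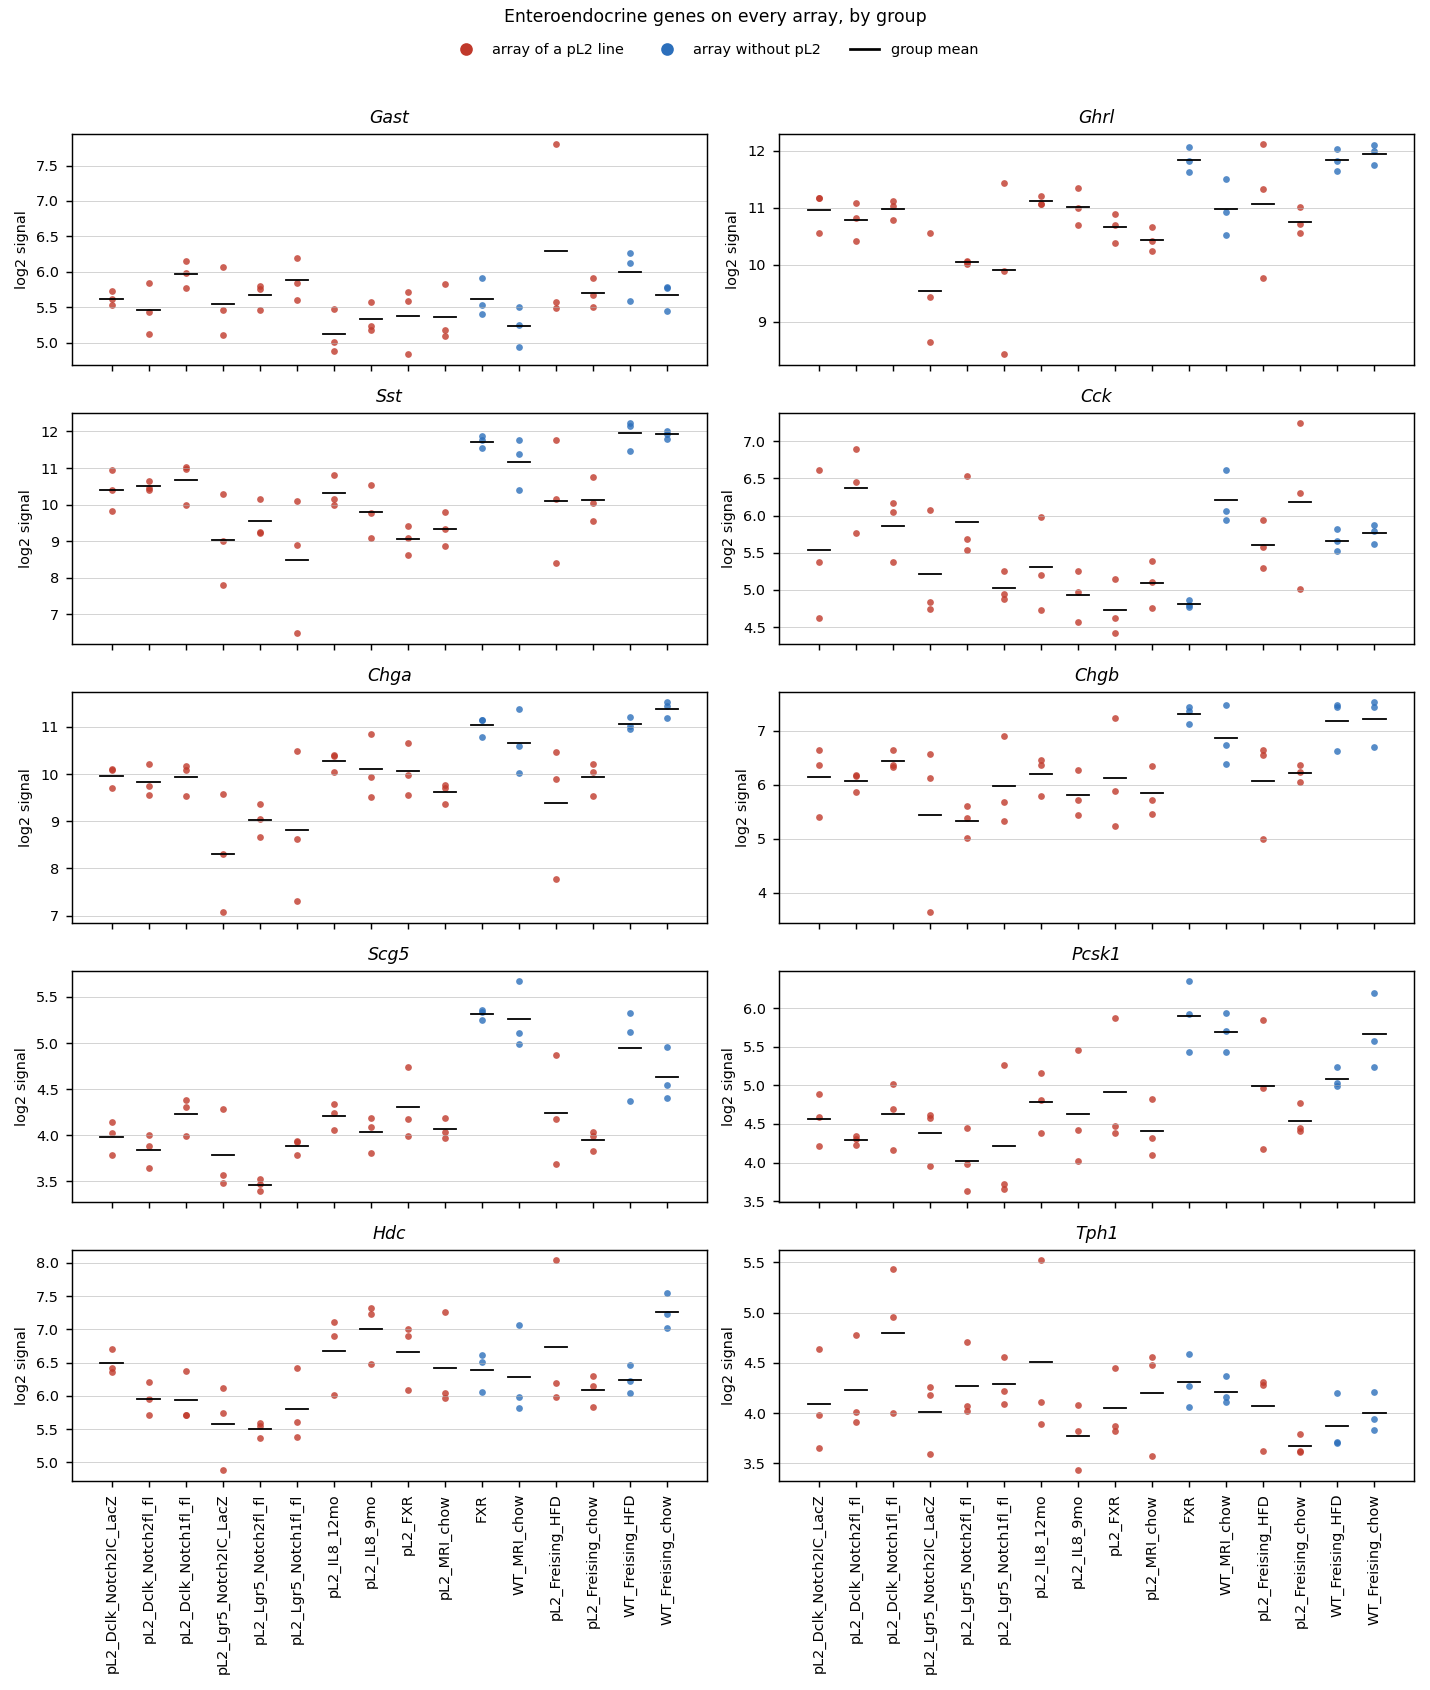
Log2 signal (vertical axis) of each of the 10 genes on every array, by group along the horizontal axis, with red points for lines that carry pL2, blue points for groups without it and a black bar at each group mean of 3 arrays. Sst, Chga, Chgb, Pcsk1 and Scg5 have their 4 highest group means in the blue groups. The step from these to the next group is within the larger standard deviation. Gast, Hdc, Tph1 and Cck show single high arrays and no such order.

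Of the 10 genes, 6 varied together. Across the 48 arrays, Ghrl, Sst, Chga, Chgb, Pcsk1 and Scg5 correlated with each other at Pearson's r of 0.68 to 0.94, against a median of 0.17 over all 45 pairs of the 10 genes. Ghrl and Chga had the highest r, 0.94, and kept 0.94 once each group's mean was taken out, so they also moved together among replicates. Gast, Hdc, Tph1 and Cck stood apart. Hdc reached 0.42 with Ghrl and with Chga and was at -0.31 with Cck. These correlations describe arrays that share groups, tissue composition and normalisation, and carry no test.

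**Figure D2:**
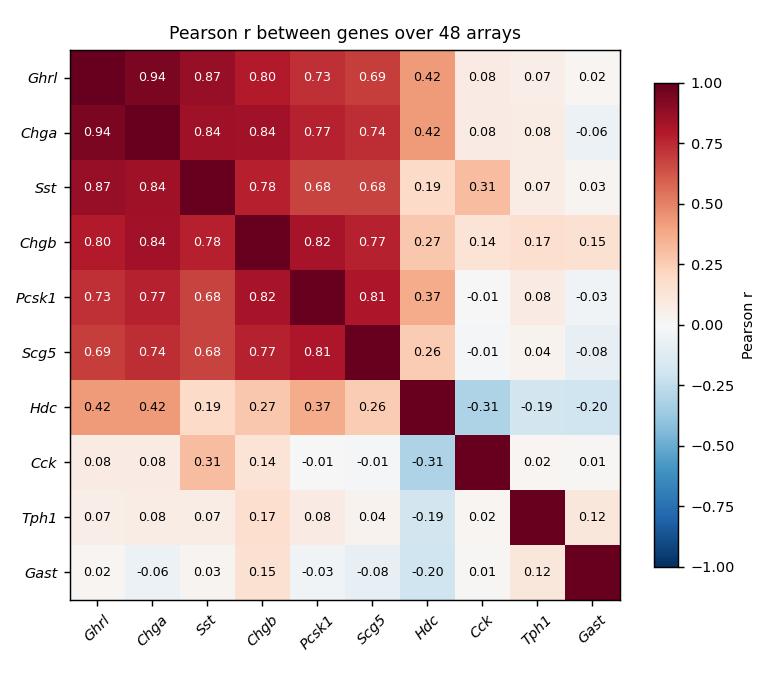
Pearson's r between each pair of the 10 genes over 48 arrays, as a heatmap with genes on both axes and r as colour. Ghrl, Sst, Chga, Chgb, Pcsk1 and Scg5 form a block at 0.68 to 0.94, and Gast, Hdc, Tph1 and Cck lie outside it.

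The genes whose arrays were most like the mean of the 10 genes' standardised values were Resp18 (r = 0.91), an endocrine secretory protein, Cel (0.91), a bile salt-stimulated lipase, Slc18a2 (0.90), which loads amines into vesicles, Pnliprp1 (0.89), a lipase-related protein, and Ptger3 (0.87), a prostaglandin receptor. For Ghrl the nearest genes after Chga were Clps, the gene of colipase (0.92), and Pnliprp1 (0.92), and for Sst they were Cel (0.90) and Pnliprp1 (0.88). Pcsk1 and Scg5 were both nearest to the granin Scg3 (0.89 and 0.86), and Chgb to Resp18 (0.87). The others had neighbours of another kind. Tph1 was nearest to the mast cell protease genes Cma1 (0.66), Mcpt-ps1 (0.65) and Tpsb2 (0.60). Cck was nearest to Cst6 (0.80), Rnf227 (0.79) and Lce6a (0.79), of which Cst6 and Lce6a are genes of the squamous lining. Hdc was nearest to Snai1 (0.69), and Gast to Mir667 (0.57). Each r is over 48 arrays.

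Because 6 of the genes moved together, their promoters are shown for the letters of the cAMP response element, TGACGT, and of its full palindrome, TGACGTCA, sought on both strands in the 250 bases before each RefSeq start (GRCm38.p6). This element was chosen with the expression results known, and a match is a description of the sequence only. All 10 genes matched the RefSeq promoter table. The 70 bases around the letters are printed for the 5 genes that held them, with the letters in capitals, and a window of equal length just before the start is given for 2 that did not.
Sst, chr16:23890855-23890924, minus strand: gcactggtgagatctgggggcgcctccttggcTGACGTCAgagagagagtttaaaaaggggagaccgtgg
Chga, chr12:102554865-102554934, plus strand: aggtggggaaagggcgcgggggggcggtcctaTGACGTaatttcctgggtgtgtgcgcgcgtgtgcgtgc
Chgb, chr2:132781538-132781607, plus strand: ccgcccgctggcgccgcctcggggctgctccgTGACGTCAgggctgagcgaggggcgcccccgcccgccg
Pcsk1, chr13:75089747-75089816, plus strand: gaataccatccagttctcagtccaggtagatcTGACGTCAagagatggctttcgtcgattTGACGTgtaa
Scg5, chr2:113829229-113829298, minus strand: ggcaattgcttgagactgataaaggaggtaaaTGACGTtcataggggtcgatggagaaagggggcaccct
Gast, chr11:100334337-100334406, plus strand: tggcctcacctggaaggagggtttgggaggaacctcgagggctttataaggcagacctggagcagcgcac
Ghrl, chr6:113719912-113719981, minus strand: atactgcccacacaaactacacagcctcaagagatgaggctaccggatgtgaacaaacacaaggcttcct

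The letters lay 48 bases upstream of the start in Sst, 44 in Chga, 72 in Chgb, 78 and 50 in Pcsk1, and 175 in Scg5. The palindrome itself stood in Sst, Chgb and Pcsk1. None of the windows of Gast, Hdc, Cck, the 4 entries of Ghrl or the 2 of Tph1 held the 6 letters. Of all 27025 genes in the RefSeq table, 7.29% had at least 1 promoter with TGACGT in the same window and 1.77% had the palindrome. Ghrl, whose signal followed Chga most closely, had no match.

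The first comparison asked how the genes differ in mice that carry the transgene. Over both facilities on chow, with the MRI and the Freising differences averaged, Sst, Chga, Chgb, Pcsk1 and Scg5 were lower in pL2 than in WT, and none of the 10 was higher. These 5 of 10 compare with 21.9% of all tested symbols that passed limma's test at an adjusted p under 0.05, in either direction. Sst had 9.79, 8.88 and 9.34 in pL2 at MRI, against 11.37, 10.40 and 11.76 in WT. At Freising on chow it had 10.06, 10.77 and 9.57 in pL2, against 11.94, 12.02 and 11.79 in WT. Neither pair overlapped, and the averaged difference was -1.81 ± 0.46 on the log2 scale (SE, limma adjusted p = 0.00417), 3.52-fold lower in pL2.

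Pcsk1 read 4.10, 4.31 and 4.82 in pL2 at MRI, against 5.71, 5.44 and 5.93 in WT, and 4.77, 4.41 and 4.44 in pL2 at Freising, against 5.57, 6.19 and 5.24 in WT. Its averaged difference was -1.20 ± 0.29 (limma adjusted p = 0.0027). Scg5 read 4.19, 4.03 and 3.97 in pL2 at MRI, against 5.11, 4.99 and 5.67 in WT, and 4.04, 3.99 and 3.83 in pL2 at Freising, against 4.96, 4.40 and 4.55 in WT. The difference was -0.94 ± 0.17 (limma adjusted p = 0.000181). Both genes were lower in every pL2 array than in any WT array of the same facility.

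Chga read 9.71, 9.36 and 9.76 in pL2 at MRI, against 10.58, 10.01 and 11.38 in WT, and 10.04, 10.21 and 9.53 in pL2 at Freising, against 11.52, 11.44 and 11.19 in WT. Its averaged difference was -1.25 ± 0.39 (limma adjusted p = 0.0204). Chgb read 5.45, 5.72 and 6.35 in pL2 at MRI, against 6.74, 6.38 and 7.48 in WT, and its averaged difference was -1.02 ± 0.37 (limma adjusted p = 0.0437), which lost the call in 9 of 12 fits that left out 1 array. Ghrl differed by -0.87 ± 0.33 and did not pass (limma adjusted p = 0.0531). Hdc (-0.52 ± 0.29), Cck (-0.35 ± 0.30), Tph1 (-0.17 ± 0.24) and Gast (0.08 ± 0.25) did not pass either. The median difference of the 10 genes was -0.90, against -0.007 for all tested symbols. The count of 5 fell to 3 without replicate 3 of WT at MRI or replicate 3 of pL2 on chow at Freising.

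At MRI alone, 3 of the 10 genes passed and 23.0% of all symbols did. These were Sst (-1.84 ± 0.65, limma adjusted p = 0.0359), Pcsk1 (-1.28 ± 0.41, 0.0202) and Scg5 (-1.19 ± 0.24, 0.000465), all lower in pL2. Cck had 5.39, 4.76 and 5.11 in pL2, against 6.07, 5.94 and 6.61 in WT, which did not overlap, but its difference of -1.12 ± 0.43 missed the threshold (limma adjusted p = 0.0536). Of the 10 genes, 6 had groups that did not overlap, against 36.6% of all symbols. The 3 calls became 2 without the 10 arrays with strong liver or intestinal signal, and 1 without replicate 1 or 3 of WT or without replicate 2 of pL2. Pcsk1 also lost its call without replicate 1 of pL2 (limma adjusted p = 0.0706), and Sst without replicate 3 of pL2 (0.0801).

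On chow at Freising none of the 10 genes passed limma's adjusted test, which called 1.64% of all symbols. An unadjusted p under 0.05 was reached by 6 of the 10 genes and by 2463 of all 15242 symbols. The groups did not overlap for 8 of the 10 genes, against 26.5% of all symbols, and Cck and Gast were the exceptions. The differences of Sst (-1.79 ± 0.65), Chga (-1.45 ± 0.56), Ghrl (-1.19 ± 0.46), Pcsk1 (-1.13 ± 0.41) and Scg5 (-0.68 ± 0.24) had the sign seen at MRI. Hdc read 6.15, 6.31 and 5.82 in pL2, against 7.02, 7.54 and 7.23 in WT, a difference of -1.17 ± 0.41 (limma adjusted p = 0.137). When only these 2 groups entered the fit, 4 of the 10 genes passed, and without the 10 arrays above and the pL2 array on HFD with the lowest parietal signal, 3 did.

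On HFD at Freising none of the 10 genes passed limma's adjusted test, against 1.16% of all symbols. An unadjusted p under 0.05 was reached by 4 of the 10 genes and by 2265 of all 15242 symbols. Sst had 11.76, 8.39 and 10.16 in pL2, against 12.22, 12.16 and 11.45 in WT, and its difference was -1.84 ± 0.65 (limma adjusted p = 0.148). Chga had 10.46, 7.77 and 9.90 in pL2, against 11.20, 11.02 and 10.96 in WT (-1.68 ± 0.56, limma adjusted p = 0.124). Chga was the only gene of the 10 whose groups did not overlap, where 20.7% of all symbols did not. The pL2 arrays on HFD were spread widely, with replicate 1 the highest and replicate 2 the lowest for Sst, Ghrl and Chga. Without replicate 1, 3 of the 10 genes passed, and without replicate 3 of WT, 1 did.

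In the FXR background, 2 of the 10 genes were lower in pL2_FXR than in FXR, and 10.1% of all symbols passed. Sst had 9.43, 8.64 and 9.10 in pL2_FXR, against 11.76, 11.86 and 11.54 in FXR. The groups lay far apart, with a difference of -2.66 ± 0.65 (limma adjusted p = 0.00669), 6.34-fold lower in pL2_FXR. Scg5 had 4.74, 3.99 and 4.18 in pL2_FXR, against 5.36, 5.25 and 5.33 in FXR (-1.01 ± 0.24, limma adjusted p = 0.00511). Ghrl (-1.18 ± 0.46), Chgb (-1.20 ± 0.52), Pcsk1 (-0.99 ± 0.41) and Chga (-0.96 ± 0.56) did not pass. Replicate 1 of pL2_FXR was the highest of its group for all 4. The groups did not overlap for 4 of the 10 genes, against 31.6% of all symbols. Without replicate 1 of pL2_FXR 4 genes passed, and without replicate 2 only 1 did.

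The mean over these 4 pairs, which share no arrays, was added after the data were seen. In it 6 of the 10 genes were lower with pL2 and none was higher, where 35.6% of all symbols passed. Sst differed by -2.03 ± 0.32 (limma adjusted p = 1.13e-05), Chga by -1.29 ± 0.28 (0.000468), Chgb by -1.09 ± 0.26 (0.00131), Ghrl by -0.92 ± 0.23 (0.00206), Scg5 by -0.90 ± 0.12 (6.3e-07) and Pcsk1 by -0.87 ± 0.20 (0.001). Cck (-0.21 ± 0.21), Tph1 (-0.10 ± 0.17), Hdc (-0.07 ± 0.20) and Gast (0.06 ± 0.18) did not pass. The count stayed at 6 in each of the 24 fits that left out 1 array and in both fits without the arrays singled out above.

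**Figure D3:**
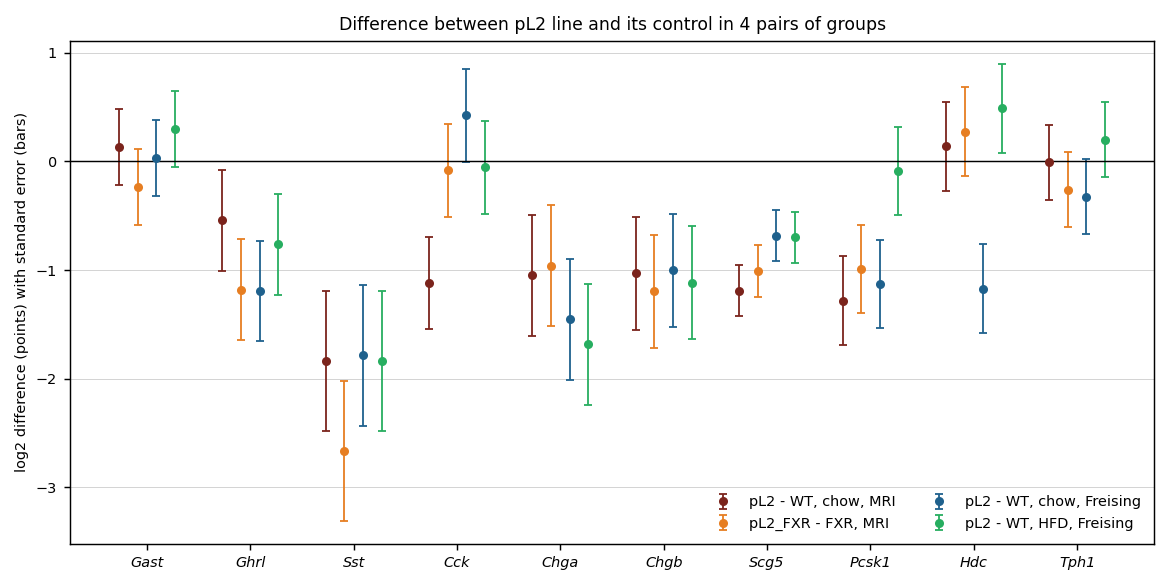
Log2 difference (vertical axis, error bars are the SE from limma) of each of the 10 genes in 4 pairs of groups of 3 arrays, pL2 minus WT on chow at MRI, pL2_FXR minus FXR, and pL2 minus WT at Freising on chow and on HFD. Sst lies between -2.66 and -1.79 in all 4 pairs, while Gast, Hdc, Tph1 and Cck lie on both sides of 0.

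Whether the transgene difference itself changed with facility, diet or FXR was tested with interaction terms, and none of the 10 genes passed any of them by limma. Between facilities, 1.76% of all symbols passed. An unadjusted p under 0.05 was found for 2859 of 15242 symbols and for 2 of the 10 genes. These were Cck, whose Freising difference exceeded the MRI difference by 1.54 ± 0.60 (limma adjusted p = 0.15), and Hdc, with -1.32 ± 0.58 (0.21). Between diets, 0.0197% of all symbols passed and 885 of 15242 had an unadjusted p under 0.05. Of the 10 genes, Hdc alone had one (1.66 ± 0.58, limma adjusted p = 0.69). Between the FXR and WT backgrounds 0.138% of all symbols passed, and none of the 10 had an unadjusted p under 0.05.

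Other genes of hormones, granules, amines, transcription factors and receptors were read from lists written with earlier results of these data known, so they are not independent of the comparison. The lists are not restricted to hormone cells, as neurons of the gut wall carry granins and convertases too. What part neurons had in the list differences was not tested. Averaged over both facilities on chow, 12 of 19 other granule and peptide processing genes were lower in pL2 and none was higher, where 21.9% of all symbols passed in either direction, with a list median of -0.86 against -0.007 for all symbols. Among them were the vesicle calcium sensor Syt1 (-1.57 ± 0.38), the granin Scg3 (-1.48 ± 0.26), Resp18 (-1.34 ± 0.31) and the vesicle fusion protein Snap25 (-1.29 ± 0.44). At MRI alone 9 of the 19 were lower, where 23.0% of all symbols passed, and in pL2_FXR against FXR 8 were, where 10.1% did. Of 10 other gut hormone genes, 3 were lower, a share near the 21.9% of all symbols. They were Gcg, the glucagon gene (-1.37 ± 0.32), Npy, a neuropeptide (-1.35 ± 0.46), and Tac1, the substance P gene (-1.02 ± 0.29).

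Of 8 genes of amine synthesis and storage, Slc18a2 (-1.27 ± 0.33) and Maob, an amine oxidase (-1.10 ± 0.40), were lower in pL2, again a share near the 21.9% of all symbols. Among 9 transcription factors of hormone cells 3 passed, which compares with the same 21.9%. Pdx1, which acts in antrum, duodenum and pancreas, was higher in pL2 (1.20 ± 0.20), and Foxa2 (-0.90 ± 0.20) and St18 (-0.65 ± 0.23) were lower. Of 11 genes for hormone receptors and ghrelin acylation, 7 were lower, against 21.9% of all symbols, with a list median of -0.98. They included Grp, which encodes the neuropeptide that releases gastrin (-2.04 ± 0.39), its receptor Grpr (-1.11 ± 0.29), the serotonin receptor Htr3a (-1.02 ± 0.29) and the histamine receptor Hrh2 (-0.99 ± 0.24). These differences are from limma at an adjusted p under 0.05.

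Markers of other cells moved in the same comparison. Of 11 parietal cell genes 5 were lower in pL2, of 12 genes of enteric neurons and glia 8 were lower, all 11 smooth muscle genes were lower, and 7 of 13 neutrophil genes were higher, where 21.9% of all symbols passed. Of 9 genes of gastric chief and neck cells 2 were lower, and the 11 pit cell genes had a median difference of -0.02. The mean of the parietal list was 9.17 to 9.39 in pL2 at MRI, against 9.93 to 10.29 in WT, and 8.99 to 9.38 in pL2 on chow at Freising, against 9.86 to 10.16 in WT. In pL2_FXR it was 9.22 to 9.76, against 10.37 to 10.47 in FXR. The enteric neuron list mean was 3.82 to 4.14 in pL2 at MRI, against 4.92 to 5.54 in WT, and 3.64 to 4.67 in pL2 on chow at Freising, against 4.33 to 4.66 in WT. The chief and neck cell list averaged 8.57 in pL2 at MRI, against 8.65 in WT, and 8.66 in pL2 on chow at Freising, against 9.13 in WT. The pit cell list averaged 11.38 in pL2 at MRI, against 10.91 in WT, and 10.95 in pL2 on chow at Freising, against 11.22 in WT. All 11 parietal genes were above the array median in all 48 arrays.

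Across the 48 arrays the parietal list mean had an r of 0.91 with Chga, 0.85 with Ghrl, 0.78 with Sst and with Scg5, and 0.73 with Chgb and with Pcsk1. With group means taken out these were 0.87 for Chga, 0.87 for Ghrl, 0.65 for Sst, 0.63 for Scg5, 0.57 for Chgb and 0.56 for Pcsk1. The enteric neuron list mean had 0.78 with Pcsk1, 0.73 with Scg5 and 0.61 with Chgb, and with group means taken out 0.60, 0.19 and 0.46 for the same genes. Other lists followed these genes too. For Ghrl, Sst, Chga, Chgb, Pcsk1 and Scg5, r with the smooth muscle list mean was 0.62 to 0.72. With the neutrophil list mean it was -0.73 to -0.55. With group means taken out these ranges were 0.23 to 0.44 and -0.65 to -0.34. With the parietal list mean added to the model, a choice made after the data were seen, 1 of the 10 genes passed over both facilities on chow and 1 over the 4 pairs, and with the enteric neuron list mean 1 and 2 did. Under the parietal term, Ghrl over the 4 pairs was 0.208 and Chga 0.0715, neither of them called. With the mean of the parietal, chief and neck, and pit cell lists together in the model, Sst (-1.35), Pcsk1 (-0.92) and Scg5 (-0.76) stayed called over both facilities on chow, and 5 of the 6 genes over the 4 pairs, all but Ghrl. The parietal and enteric neuron list means themselves differed between pL2 and WT at MRI. What part those cells had in the gene differences cannot be told apart from the genotype. The smooth muscle and neutrophil list means were not put in the model, and their part was not tested.

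**Figure D4:**
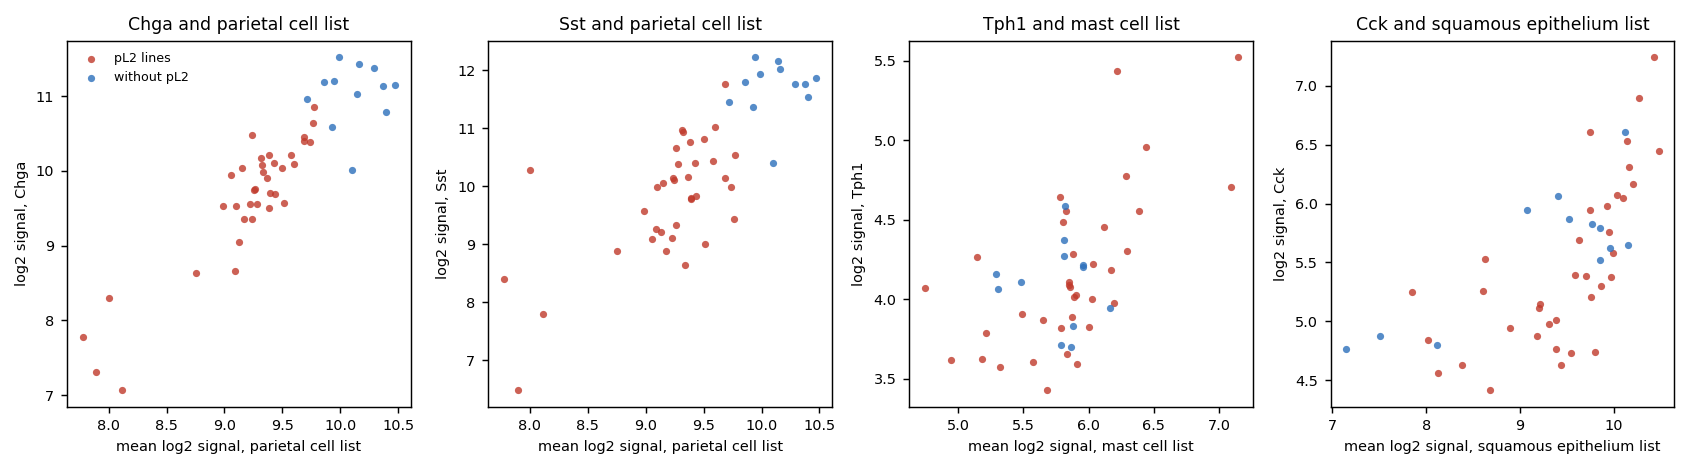
Log2 signal of Chga, Sst, Tph1 and Cck (vertical axes) against the mean log2 signal of a marker list (horizontal axes: parietal cell for Chga and Sst, mast cell for Tph1, squamous epithelium for Cck), 1 point per array, red for lines with pL2 and blue for groups without it. Chga follows the parietal list at r = 0.91 and Sst at 0.78, Tph1 follows the mast cell list at 0.59 and Cck the squamous list at 0.67, over 48 arrays.

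HFD was compared with chow at Freising. None of the 10 genes passed in pL2 by limma, where 0% of all symbols did and none of the 10 had an unadjusted p under 0.05. In WT, 0.164% of all symbols passed and 660 of 15242 had an unadjusted p under 0.05. Of the 10 genes, only Hdc had one. Its values were 6.46, 6.22 and 6.04 in WT on HFD, against 7.02, 7.54 and 7.23 in WT on chow (-1.02 ± 0.41, limma adjusted p = 1), so the groups did not overlap but the adjusted test was not passed.

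FXR mice were compared with WT mice at MRI, where 2.12% of all symbols passed limma's adjusted test and none of the 10 genes did. Cck was the only gene of the 10 with an unadjusted p under 0.05, which 2408 of all 15242 symbols had. It read 4.77, 4.87 and 4.80 in FXR, against 6.07, 5.94 and 6.61 in WT (-1.39 ± 0.43, limma adjusted p = 0.077). The squamous list mean, with which Cck correlated at 0.67, was 7.15 to 8.12 in FXR, the lowest of the 16 groups, against 9.07 to 10.12 in WT. Its part in the Cck value was not tested. In pL2_FXR against pL2, 0.0853% of all symbols passed, none of the 10 genes did by limma, and none had an unadjusted p under 0.05.

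pL2_IL8 mice of 12 months were compared with pL2 mice at MRI, and none of the 10 genes passed limma's test or had an unadjusted p under 0.05, where 1.82% of all symbols passed. Sst read 9.98, 10.15 and 10.82 in pL2_IL8, against 9.79, 8.88 and 9.34 in pL2, and its difference of 0.98 was not called (limma adjusted p = 0.46). The title series of the arrays also differed between these groups, so line and title series cannot be told apart. Between 12 and 9 months in pL2_IL8, 0% of all symbols passed and none of the 10 genes did by limma. Tph1 alone of the 10 had an unadjusted p under 0.05, as had 1184 of all 15242 symbols. It read 4.11, 5.52 and 3.89 at 12 months and 4.08, 3.43 and 3.82 at 9 months. The difference of 0.73 rests on replicate 2 at 12 months. That array also had the highest mast cell list mean of the 48, 7.14.

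The 6 Notch lines were each compared with pL2 at MRI, the same 3 arrays serving as reference throughout, and none of the 10 genes passed limma's adjusted test in any of them. The share of all symbols that passed was 0.144% in pL2_Lgr5_Notch1fl_fl, 0.0525% in pL2_Lgr5_Notch2fl_fl and 0.138% in pL2_Lgr5_Notch2IC_LacZ. It was 0% in pL2_Dclk_Notch1fl_fl, 0.256% in pL2_Dclk_Notch2fl_fl and 0.0197% in pL2_Dclk_Notch2IC_LacZ. At an unadjusted p under 0.05 there were 0, 2 and 2 of the 10 genes in the Lgr5 lines and 1, 1 and 0 in the Dclk lines, in the same order of lines. Of all 15242 symbols, 2209, 1385 and 1892 reached this in the Lgr5 lines and 1589, 1980 and 1016 in the Dclk lines. The genes of the 10 that did so included Chga in pL2_Lgr5_Notch2IC_LacZ (-1.30 ± 0.56, limma adjusted p = 0.33) and Cck in pL2_Dclk_Notch2fl_fl (1.28 ± 0.43, limma adjusted p = 0.18). The Notch lines form a title series of their own and received tamoxifen, so neither can be told apart from the genotype here.

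Notch2IC_LacZ was also set against Notch2fl_fl within a driver. In the Lgr5 lines 0.0722% of all symbols passed and in the Dclk lines 0.0328%, and none of the 10 genes passed by limma or had an unadjusted p under 0.05 in either. The difference between the drivers in this effect called 0% of all symbols and none of the 10 genes, again with none at an unadjusted p under 0.05.

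The 3 Dclk lines together were compared with the 3 Lgr5 lines, 9 arrays each. Ghrl and Sst were higher in the Dclk lines, 2 of the 10 genes where 0.945% of all symbols passed. At an unadjusted p under 0.05 there were 7 of the 10 genes and 2341 of all 15242 symbols. Ghrl read 10.42, 11.03 and 11.18 in the Dclk lines (lowest, median and highest), against 8.43, 10.02 and 11.42 in the Lgr5 lines (1.07 ± 0.27, limma adjusted p = 0.0449, 2.11-fold higher). Sst read 9.83, 10.44 and 11.02 in the Dclk lines, against 6.49, 9.22 and 10.28 in the Lgr5 lines (1.50 ± 0.37, limma adjusted p = 0.0453, 2.82-fold higher). Chga read 9.53, 10.08 and 10.21 in the Dclk lines, against 7.07, 8.66 and 10.48 in the Lgr5 lines, and missed the threshold (1.20 ± 0.32, limma adjusted p = 0.06).

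For Ghrl, Sst and Chga the Lgr5 arrays were spread over a wider range than the Dclk arrays. The spread differed between the Lgr5 lines, and the 3 Ghrl values of pL2_Lgr5_Notch2fl_fl lay between 10.02 and 10.07. The 2 sets of lines overlapped for each of the 10 genes. Of all symbols, 0.0131% did not overlap. Chgb (0.64 ± 0.30), Cck (0.54 ± 0.25), Hdc (0.50 ± 0.24) and Scg5 (0.31 ± 0.14) were higher by smaller amounts and were not called. Both calls lay close to the threshold and used a spread shared by all 16 groups, 0.59 for Ghrl and 0.82 for Sst. Standard deviations within the Lgr5 lines ran from 0.02 to 1.50 for Ghrl and from 0.52 to 1.84 for Sst. With only the Dclk and Lgr5 lines in the fit, neither was called (limma adjusted p = 0.319 and 0.291). When single arrays were left out, each call was lost in 13 of 18 fits, arrays of either driver included. The difference stayed between 0.83 and 1.33 for Ghrl and between 1.16 and 1.76 for Sst. Both were smallest without replicate 2 of pL2_Lgr5_Notch1fl_fl, the array with the highest hepatocyte list mean. Over these fits the count ran from 0 to 3. Without the 10 arrays with strong liver or intestinal signal, 4 of them in Lgr5 lines and 2 in Dclk lines, neither gene was called, and the differences were 1.10 for Ghrl and 1.44 for Sst. With age in the model neither was called, and the differences were 1.33 and 1.77. Age at sampling and age at tamoxifen both ran lower in the Lgr5 lines and cannot be fully told apart from the driver. The parietal list mean was 9.10 to 9.60 over the Dclk lines, against 7.90 to 9.51 over the Lgr5 lines. With it in the model neither was called, and the differences were 0.34 for Ghrl and 0.73 for Sst.

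**Figure D5:**
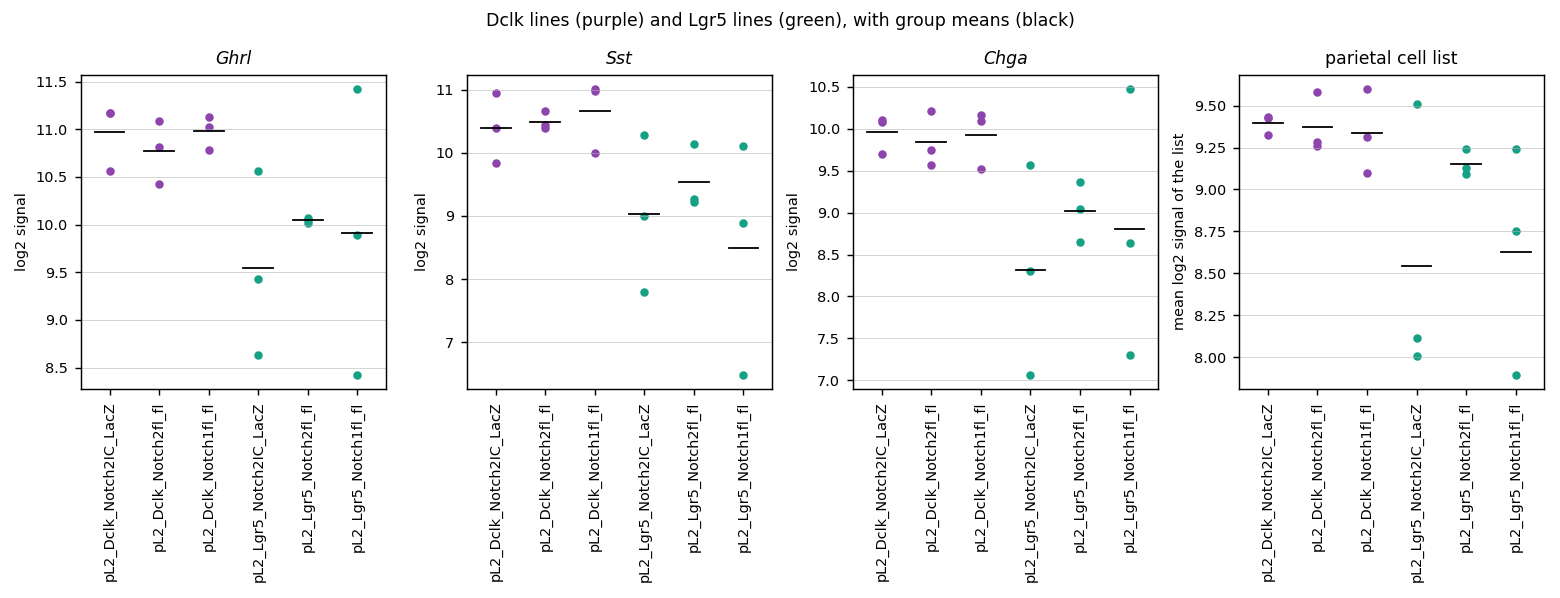
Log2 signal of Ghrl, Sst and Chga and the mean log2 signal of the parietal cell list (vertical axes) in the 3 Dclk lines (purple) and the 3 Lgr5 lines (green), 1 point per array. The Dclk arrays sit close together, with Sst between 9.83 and 11.02, while the Lgr5 arrays spread from 6.49 to 10.28, and the parietal list mean spreads in the same lines.

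Single arrays set the extremes of the genes that stood apart. The Gast value of 7.80 and the Hdc value of 8.04 both came from pL2 on HFD, from replicate 3 and replicate 2. The array with the high Hdc had a neutrophil list mean of 7.31, against 5.46 and 5.86 in the other replicates. Over all arrays, this one included, Hdc and the neutrophil list correlated at 0.12, and at 0.59 with group means taken out. The highest Cck, 7.24, was in replicate 3 of pL2 on chow at Freising, whose other replicates read 6.31 and 5.01. Tph1 followed the mast cell list at r = 0.59, and at 0.58 with group means taken out. What part mast cells, neutrophils or squamous tissue had in these values was not tested.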

How the data were processed

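RNA of whole mouse tissue from the oesophagus and stomach junction was hybridised to 48 Affymetrix arrays, 1 per sample. Each deposited value is a log2 signal of a probe set. The authors normalised by RMA in Affymetrix Expression Console (version not given), per the submitters' processing notes. The number of arrays limits the precision. Of 34390 entries, 23521 had 1 symbol and were used, 1814 with several and 9055 with none were left out, and the brightest entry of a symbol was kept. Entries carried the symbols of GEO's platform annotation.

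Groups came from genotype, facility, diet and age labels. Replicate numbers name arrays in accession order and pair nothing. One limma 3.58.1 model (R 4.3.3) with a mean for each of 16 groups gave 32 residual degrees of freedom and 25 comparisons, two-sided, with Benjamini-Hochberg adjustment over 15242 symbols and a threshold of 0.05. The code was tested on simulated data. Promoters were searched in RefSeq sequence of GRCm38.p6.

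The 10 genes, the gene lists and the promoter motif were chosen with earlier results of these data known. Beside the 10 genes, the text names, of each pathway list, up to 4 genes that passed the test with the largest differences, and the 5 genes most like the mean of the 10 and the 3 most like each gene. Alternatives covered filters, normalisation, samples in the fit, array weights, covariates and single arrays left out.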

Additional observations from a re-analysis of the deposited data

How the results depend on the processing

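Beside leaving out single arrays, 16 alternative settings were run. Over both kinds together 989 of 1137 values kept their direction and their side of the threshold, or for counts stayed close to the count reported. Many of these values are counts that were 0 and stayed 0. With single arrays left out, the call of Chgb over both facilities held in 3 of 12 fits and that of Sst in Dclk against Lgr5 in 5 of 18. That of Sst over the 4 pairs held in 24 of 24. Scg5 stayed lower in pL2 over both facilities on chow in all 15 settings run for it, at -0.98 to -0.56. No paired analysis was possible because the labels carry no replicate numbers that link arrays of different groups. The counts below are of the 10 genes passing limma's test, and the cause was not tested unless the setting itself used fewer samples or more genes. Fitting the compared groups alone gave 4 for pL2 against WT on chow at Freising, 1 for FXR against WT and 0 for Dclk against Lgr5. Array weights, estimated gene by gene because the joint estimate did not converge, gave 6 for pL2 against WT on chow at MRI, 6 on chow at Freising and 4 on HFD, 1 for HFD against chow in WT, 1 for FXR against WT, 1 for pL2_Dclk_Notch1fl_fl, 2 for pL2_Dclk_Notch2fl_fl and 1 for the facility interaction. Dclk against Lgr5 gave 0 without the filter, with cyclic loess and with age as covariate. A sex-linked covariate gave 5 at MRI. The title suffix as covariate gave 3 over both facilities on chow. A gastric covariate gave 3 there and 1 for Dclk against Lgr5, and a squamous covariate gave 0 for pL2_FXR against FXR. Of the settings chosen after the data were seen, leaving out the 10 arrays with liver or intestinal signal gave 0 for Dclk against Lgr5, and leaving out the pL2 HFD array with the lowest parietal signal as well gave 3 on chow at Freising and 1 for Dclk against Lgr5. The parietal covariate gave 1 over both facilities, 1 at MRI, 0 for pL2_FXR against FXR, 0 for Dclk against Lgr5 and 1 over the 4 pairs, where Ghrl turned to 0.208 and Chga to 0.0715. The enteric neuron covariate gave 1 over both facilities, 1 at MRI, 0 for pL2_FXR against FXR and 2 over the 4 pairs. With single arrays left out, the counts ran from 3 to 6 over both facilities, from 1 to 3 at MRI, from 0 to 3 on HFD, from 1 to 4 for pL2_FXR against FXR, from 0 to 1 for the facility interaction (1 without replicate 2 of pL2 on chow at Freising), from 0 to 3 for Dclk against Lgr5 and from 6 to 6 over the 4 pairs. They stayed at 0 in the other comparisons. Tph1, Scg5 and Pcsk1 lie near the array medians, which limits how small a difference in them can be seen.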
